A study of Homo sapiens with 9 samples.

Results

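TALDO1, the gene for transaldolase, was followed across all 9 libraries of the human glioblastoma line U-87, left untreated or given evernic acid (EA), temozolomide (TMZ) or both. It was found as every listed RefSeq transcript that belongs to TALDO1, which was 1 transcript of 159067 and 1 gene of 609 that could be tested. TALDO1 was selected on its measured counts in these same libraries, by treatment and by dose, so its levels are given as a description and carry no test. All cells were U-87 cells harvested 24 h after the start of treatment. The study describes the line as resistant to TMZ. The untreated group had 3 libraries, and whether it received the solvent is not given in the sources used here. The treated groups had 1 library each and are named by their concentrations in µM: EA30 (EA 30 µM), EA45 (EA 45 µM), EA35TMZ320 (EA 35 µM with TMZ 320 µM), EA20TMZ380 (EA 20 µM with TMZ 380 µM), EA20TMZ580 (EA 20 µM with TMZ 580 µM) and TMZ600 (TMZ 600 µM). EA is a compound made by lichens, and TMZ is the alkylating drug in standard use against glioblastoma. The labels do not say whether the untreated libraries came from separate cultures, so their spread may be technical.

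The pentose phosphate pathway branches off glycolysis near its start. Its oxidative branch yields NADPH, which cells spend on lipid synthesis and on keeping glutathione reduced, and its non-oxidative branch moves carbon in both directions between ribose 5-phosphate, the sugar of nucleotides, and the intermediates of glycolysis. Transaldolase works in the non-oxidative branch beside transketolase, moving a dihydroxyacetone unit from sedoheptulose 7-phosphate to glyceraldehyde 3-phosphate.

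The libraries captured the 3′ ends of transcripts, and the deposited values are read counts per RefSeq transcript. The controls held 269057, 259753 and 285248 counts. EA30 held 490235, EA45 325812, EA35TMZ320 213566, EA20TMZ380 367291, EA20TMZ580 330759 and TMZ600 304336, so TALDO1 was measured at unequal depth.

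The table has a limit that bears on every value below. Of 88 genes for cytosolic ribosomal proteins, which every cell uses and which were picked as a check after the values were seen, 11 had a count in any library and 3 reached a mean of 10 counts. A gene listed at 0 was therefore not read as silent. The submitters' processing notes name hg38 with HISAT2 and HTSeq. Whether the alignment and the gene models used for counting shared 1 build, and whether the reads listed under a gene's name came from that gene, was not tested, so each value is what the table lists under that name. The cell label could not be checked against its markers for the same reason: of 18 markers of U-87 and glioblastoma lines, 14 were listed at 0 in all libraries, VIM, CD44 and GFAP among them, and NES had 706 counts, more than the remaining markers. Of 17 markers of other cell types, 16 were listed at 0 and VWF had 1 count. The U-87 markers summed to 152, 169 and 178 counts in the controls, 54 in TMZ600, 22 in EA20TMZ580, 44 in EA20TMZ380, 22 in EA35TMZ320, 57 in EA30 and 15 in EA45.

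In the RefSeq annotation of GRCh38.p14, TALDO1 lies on the forward strand of chromosome 11 from 747464 to 765012, in 8 exons by the GENCODE transcript matched to it. It overlaps 0 other genes of either annotation. Its pseudogene TALDO1P1 has 0 listed transcripts, and whether reads of the pseudogene were counted under TALDO1 was not tested.

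As a share of counts and in CPM, TALDO1 was higher than in every control in all 5 libraries that received EA, and inside the range of the controls in TMZ600. The controls held 678, 571 and 555 TALDO1 counts. EA30 held 1945, EA45 1663, EA35TMZ320 994, EA20TMZ380 1577, EA20TMZ580 1108 and TMZ600 720. Because depth differed, these counts are better read as shares of each library. Of all counts, TALDO1 took 0.252, 0.220 and 0.195% in controls 1, 2 and 3, with 95% Wilson intervals of 0.234 to 0.272%, 0.203 to 0.239% and 0.179 to 0.211%. It took 0.397% in EA30 (0.380 to 0.415%) and 0.510% in EA45 (0.487 to 0.535%). It took 0.465% in EA35TMZ320 (0.437 to 0.495%), 0.429% in EA20TMZ380 (0.409 to 0.451%), 0.335% in EA20TMZ580 (0.316 to 0.355%) and 0.237% in TMZ600 (0.220 to 0.254%). The intervals cover counting error only. Controls 1 and 3 differed by a ratio of 1.30 (exact interval 1.16 to 1.45), so the controls also differed among themselves. In bulk RNA, a change in TALDO1 RNA per cell and a change in which cells were left cannot be told apart.

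**Figure D1:**
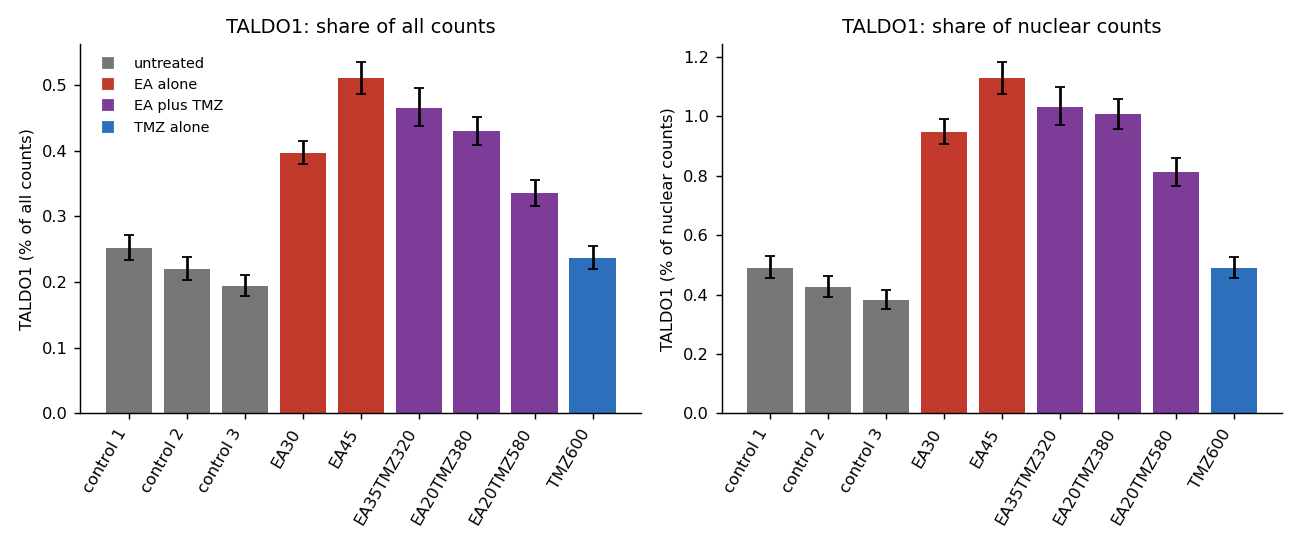
TALDO1 counts as a share of all counts (left) and of nuclear counts (right) in each of the 9 libraries, in percent, with 95% Wilson intervals for counting error as bars. The 5 libraries with EA stand between 0.335 and 0.510% of all counts, above the controls, which reach 0.252%, while TMZ600 is at 0.237%.

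The mitochondrial genome took a different part of each library. It held 48.4 to 49.1% of the counts in the controls, 54.8 to 58.7% in the 5 libraries with EA and 51.7% in TMZ600. TALDO1 was therefore also set against nuclear counts alone, of which there were 96265 to 205133 per library. On that scale its share was 0.491, 0.426 and 0.382% in the controls, 0.489% in TMZ600, 0.812% in EA20TMZ580, 1.01% in EA20TMZ380, 1.03% in EA35TMZ320, 0.948% in EA30 and 1.13% in EA45. The ratio to the control mean in the libraries with EA was 1.51 to 2.30 of all counts and 1.87 to 2.61 of nuclear counts, so the difference was larger once mitochondrial counts were set aside. TMZ600 stood at 1.07 times the control mean of all counts and 1.13 times that of nuclear counts, under control 1 on both scales.

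Scaling by TMM, a factor per library that evens out the bulk of the genes, gave TALDO1 levels in CPM, its counts over the library total after that factor. The controls were at 2351, 2061 and 1808 CPM, a mean of 2073 ± 272 (SD, n = 3), and the SD of their log2 values was 0.19. From the highest level down, the treated libraries were EA45 at 5629, EA20TMZ380 at 4881, EA35TMZ320 at 4840, EA30 at 4485, EA20TMZ580 at 3577 and TMZ600 at 2128 CPM. As a rough measure of how far 2 single libraries lie apart, the SD of the controls times the square root of 2 is 0.27 on the log2 scale. Neighbours in this order that lay closer than that were EA45 and EA20TMZ380 (0.21), EA20TMZ380 and EA35TMZ320 (0.01) and EA35TMZ320 and EA30 (0.11). The steps from EA30 to EA20TMZ580 (0.33) and from EA20TMZ580 to TMZ600 (0.75) were wider than 0.27. The controls themselves spanned 0.38, more than the step from EA30 to EA20TMZ580.

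**Figure D2:**
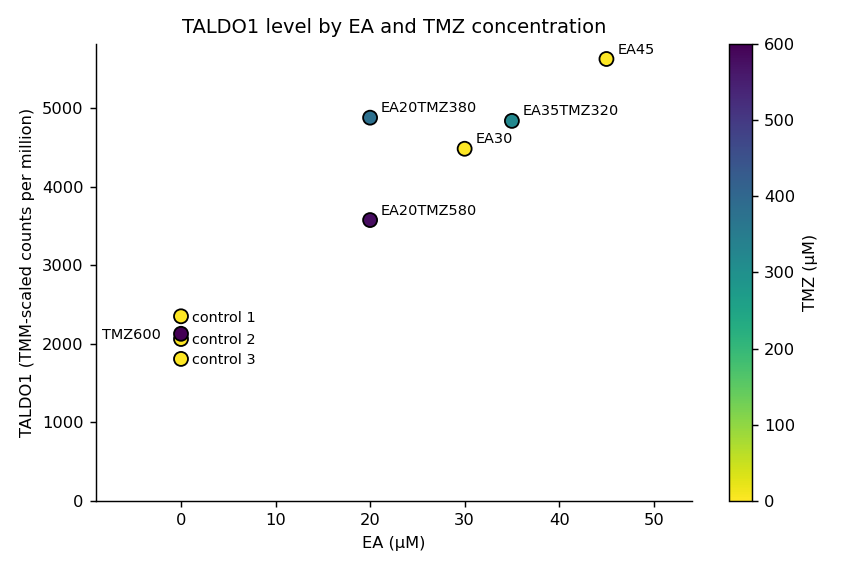
TALDO1 level in TMM-scaled CPM (vertical axis) against the EA concentration in µM (horizontal axis), 1 point per library, coloured by the TMZ concentration in µM. The 4 libraries without EA lie between 1808 and 2351 CPM and the 5 with EA between 3577 and 5629 CPM.

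Against the 3 controls, the edgeR quasi-likelihood fit gave TALDO1 a log2 fold change of 1.11 ± 0.15 (SE) in EA30 and 1.44 ± 0.14 in EA45. In the combinations it was 1.22 ± 0.15 in EA35TMZ320, 1.24 ± 0.15 in EA20TMZ380 and 0.79 ± 0.15 in EA20TMZ580. In TMZ600 it was 0.04 ± 0.16, and its sign depended on the setting. With 1 library per treatment, these errors rest on the 3 controls, which leave 2 residual degrees of freedom per gene. The fit drew each gene's spread toward that of all genes. The errors are therefore not the spread of TALDO1 in its own controls, whose log2 SD was 0.19. There is no replicate check of any treatment. TALDO1 was a deeply counted gene here: the median SE over the 609 genes was 0.38 in EA30 and 0.43 in EA35TMZ320. With the 6 treated libraries taken as 1 group, although they differ in dose and are not replicates, its log2 fold change was 1.04 ± 0.27.

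Set among all 609 genes, TALDO1 stood near the top in most treatments with EA. In EA20TMZ380, 26 genes had a higher log2 fold change, in EA30 28 and in EA45 36. In EA35TMZ320 there were 67 and in EA20TMZ580 83, and in TMZ600 288, close to the middle of the list. The median gene was at 0.01 in TMZ600, -0.03 in EA20TMZ580, -0.12 in EA20TMZ380, -0.13 in EA35TMZ320, -0.06 in EA30 and -0.05 in EA45. These places describe a gene chosen by its levels and support nothing further.

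**Figure D3:**
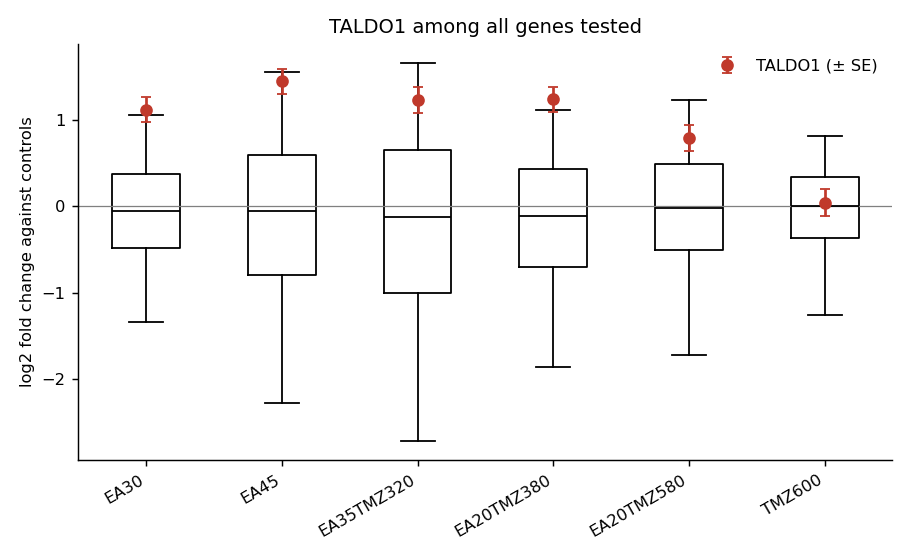
Log2 fold change against the controls in each treatment (vertical axis) for TALDO1 (red points, ± SE) and for all 609 genes tested (boxes from the lower to the upper quartile with the median as a line, whiskers from the 5% to the 95% quantile). TALDO1 is at 1.11 in EA30, where the upper quartile of all genes is 0.37, and at 0.04 in TMZ600.

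Single treatments were compared in 8 pairs, each of 1 library with 1 library, as a description. EA45 held a TALDO1 share of all counts 1.29 times that of EA30 (exact interval 1.20 to 1.37). At 20 µM EA, the library with TMZ at 380 µM held 1.28 times the share of the library with TMZ at 580 µM (1.19 to 1.39). EA20TMZ580, which differs from TMZ600 by the EA and by 20 µM of TMZ, held 1.42 times its share (1.29 to 1.56). The ratio of controls 1 and 3, both untreated, was 1.30. On the TMM scale the steps were 0.33 from EA30 to EA45 and 0.45 from EA20TMZ580 to EA20TMZ380 (log2), beside a range of 0.38 among the controls. EA35TMZ320, with EA between the doses given alone, held 1.17 times the share of EA30 (1.09 to 1.27), and EA45 held 1.10 times the share of EA35TMZ320 (1.01 to 1.19). EA35TMZ320 held 1.39 times the share of EA20TMZ580 (1.27 to 1.51) and 1.08 times that of EA20TMZ380 (1.00 to 1.17), and EA20TMZ380 held 1.08 times the share of EA30 (1.01 to 1.16). Of nuclear counts, these 8 ratios were, in the same order, 1.19, 1.24, 1.66, 1.09, 1.09, 1.27, 1.03 (0.946 to 1.11) and 1.06 (0.993 to 1.14).

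A fit with a term for each compound gave TALDO1 a log2 change of 0.35 ± 0.05 (SE) per 10 µM EA and 0.03 ± 0.03 per 100 µM TMZ over the 9 libraries. Deviations were taken from a line with these slopes, centred on the mean of the 9 libraries. EA20TMZ380 lay farthest from that line, 0.42 above it on the log2 scale. The others lay between 0.20 below it, in control 3, and 0.18 above it, in control 1. Leaving out each library in turn and the other alternatives kept the EA term between 0.33 and 0.38 and the TMZ term between 0.01 and 0.05. Both terms assume a straight line in dose. With EA the levels were 4881 CPM in EA20TMZ380, 3577 in EA20TMZ580, 4485 in EA30, 4840 in EA35TMZ320 and 5629 in EA45. They did not rise at every step of EA dose. EA20TMZ580 lay 0.45 (log2) below EA20TMZ380, against the sign of the TMZ term. Whether TALDO1 followed the dose of EA or only its presence was not tested.

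Transaldolase could not be set beside the rest of its pathway. Of the 12 genes in the 2 pentose phosphate lists, 9 were listed at 0 in all libraries. These included the lactonase PGLS and the phosphogluconate dehydrogenase PGD of the oxidative branch, and 5 of the non-oxidative branch: the isomerase RPIA, the epimerase RPE, the transketolase TKT and its relatives TKTL1 and TKTL2. RPEL1, a relative of the epimerase, had 12 counts over the 9 libraries and SHPK, which makes sedoheptulose 7-phosphate, had 3, against 9811 counts for TALDO1. TALDO1 was thus the 1 member of 12 that reached a mean of 10 counts.

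The lists around the pathway were as sparse. Listed at 0 were 23 of 28 genes that use ribose phosphate or make nucleotides, 27 of 36 of glycolysis and its switches and 11 of 14 other sources of NADPH. The same held for 42 of 49 genes of glutathione, thioredoxin and NRF2, the factor known to raise TALDO1 and other pentose phosphate genes under oxidative stress, and for 21 of 22 p53 targets. Of the 160 genes of the pathway lists other than TALDO1, 1 could be tested, PRDX2, a peroxidase that removes hydrogen peroxide with thioredoxin. With the marker NES, an intermediate filament of neural progenitor cells, 2 list genes other than TALDO1 were tested, too few to describe a list.

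PRDX2 had 26, 13 and 13 counts in the controls, 17 in TMZ600, 2 in EA20TMZ580, 9 in EA20TMZ380, 3 in EA35TMZ320, 31 in EA30 and 3 in EA45. NES had 152, 169 and 174 counts in the controls, 54 in TMZ600, 20 in EA20TMZ580, 44 in EA20TMZ380, 22 in EA35TMZ320, 56 in EA30 and 15 in EA45. NES was lower in every treated library than in every control, and PRDX2 had 2 to 9 counts in 4 of the 5 libraries with EA, all but EA30. In EA45 both list genes fell (39.1% of all 609 genes passed the same test), as in EA20TMZ580 (24.6%). In EA30 (17.6%), EA35TMZ320 (43.0%), EA20TMZ380 (26.1%) and TMZ600 (9.85%), 1 of the 2 fell, NES. NES also fell with the 6 treatments as 1 group (6.40% of all genes called), per EA dose (27.3%) and per TMZ dose (3.61%).

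The fall of NES was -2.13 ± 0.32 (log2, SE) in EA30 and -3.47 ± 0.38 in EA45, with adjusted p of 4.85e-07 and 1.09e-10 by edgeR's quasi-likelihood test with Benjamini-Hochberg adjustment. Each test of a single treatment set a single library against the controls, so its p does not cover the spread between cultures of that treatment. The fall of NES was called in every alternative for the 6 single treatments. Per TMZ dose the call was lost without control 2, control 3, EA20TMZ580 or TMZ600, at edgeR adjusted p of 0.0676, 0.0641, 0.0907 and 0.181, in a range from 0.000183. Per EA dose PRDX2 was not called, except without EA30, at an edgeR adjusted p of 0.0219 in a range up to 0.483. The fall of PRDX2 was -2.51 ± 0.89 (log2, SE) in EA45 and -3.13 ± 0.97 in EA20TMZ580, with edgeR adjusted p of 0.0204 and 0.0130. The call in EA45 was lost without control 1 (adjusted p = 0.0833), without the filter and with DESeq2, over a range of 0.0155 to 0.261 in all alternatives. The call in EA20TMZ580 was lost without the filter, at an adjusted p of 0.0736 in a range from 0.00951.

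Genes beside TALDO1 on chromosome 11 were read as a check of what the table lists in that stretch. Within 500 kb of it, 53 other loci had a listed transcript, of which 41 were listed at 0, 6 fell short of a mean of 10 counts and 6 were tested. Of the 42 protein-coding genes there, TALDO1 included, 14.3% reached that mean, against 1.89% of all 19274 nuclear protein-coding genes. Among those with 1 listed transcript it was 40%, against 3.70% elsewhere. GATD1, the nearest protein-coding gene, begins 2.2 kb past the end of TALDO1 and had 1 to 6 counts in each control and 5 to 14 in each treated library, too few to test.

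The 6 tested neighbours had lower fold changes than TALDO1 in each treatment with EA. The ribosomal protein gene RPLP2, 45.0 kb away, held 9195, 8517 and 9088 counts in the controls, with log2 fold changes of -0.20 to 0.25 in the single treatments. None of these passed edgeR's test after adjustment. Under some alternatives RPLP2 was called higher in EA45 (1 of 10 alternatives), EA35TMZ320 (1 of 10) and EA20TMZ380 (4 of 10, with adjusted p from 7.02e-06 to 0.460 over all 10, edgeR and DESeq2 together), the direction of TALDO1, and lower in TMZ600 (1 of 10). POLR2L, a subunit shared by the nuclear RNA polymerases, had 2701, 2812 and 3072 counts in the controls, 2749 in TMZ600, 2338 in EA20TMZ580, 3137 in EA20TMZ380, 854 in EA35TMZ320, 3021 in EA30 and 947 in EA45. CEND1, a neuronal membrane protein, had 191, 142 and 174 counts in the controls, 165 in TMZ600, 144 in EA20TMZ580, 119 in EA20TMZ380, 22 in EA35TMZ320, 189 in EA30 and 66 in EA45. On the other side lay IFITM2 and IFITM1, interferon-induced proteins that hinder virus entry, and MIR210HG, the host RNA of a hypoxia-linked microRNA. MIR210HG had the lowest fold change of the 6 in every treatment, with 160, 182 and 203 counts in the controls, 24 in TMZ600, 7 in EA20TMZ580, 12 in EA20TMZ380, 1 in EA35TMZ320, 35 in EA30 and 11 in EA45. The number of neighbours that fell was 3 of 6 in TMZ600, where 34 of all 609 genes fell and 9.85% were called, and 4 of 6 in EA20TMZ580 (74 fell, 24.6% called). It was 3 of 6 in EA20TMZ380 (87 fell, 26.1% called), 5 of 6 in EA35TMZ320 (144 fell, 43.0% called), 3 of 6 in EA30 (53 fell, 17.6% called) and 5 of 6 in EA45 (117 fell, 39.1% called). In the main setting edgeR called 0 of 6 higher in any of these, where 26 (TMZ600) to 121 (EA45) of all genes were called higher. Per 10 µM EA, 5 of 6 fell (80 of all genes fell, 27.3% called), among them IFITM2 at -0.30 ± 0.10 and POLR2L at -0.29 ± 0.06, with edgeR adjusted p of 0.0348 and 0.00473. Both calls were lost without EA45, at adjusted p of 0.264 and 0.100, the highest over their alternatives. With the 6 treatments as 1 group 2 neighbours fell (22 of all genes fell, 6.40% called), and per TMZ dose 1 (14 fell, 3.61% called). Per TMZ dose IFITM1 was called lower as well without EA35TMZ320 (edgeR adjusted p = 0.0340) and with DESeq2 (0.0272), in a range up to 0.343, which makes 2. In TMZ600 POLR2L was called lower without control 1 (edgeR adjusted p = 0.0221, in a range up to 0.993). Several of these calls were lost under alternatives, among them that of IFITM1 in EA30 without the filter. Without control 2, those of POLR2L in EA30 and EA20TMZ580, IFITM2 in TMZ600 and CEND1 in EA20TMZ380 were lost, at edgeR adjusted p of 0.0791, 0.179, 0.0933 and 0.0604. The call of CEND1 in EA20TMZ380 was lost in 7 of its 10 alternatives, among them without control 1 (edgeR adjusted p = 0.0780), at an adjusted p of up to 0.424, with DESeq2. That of POLR2L in EA20TMZ580 was lost in 4 of 10, among them without control 3 (edgeR adjusted p = 0.0783), at up to 0.231, and that of IFITM2 in TMZ600 in 3 of 10, at up to 0.131, both highest values without the filter. With DESeq2, IFITM1 lost its call in EA30, EA20TMZ380 and TMZ600, at adjusted p of 0.196, 0.116 and 0.0535, the highest over their alternatives. IFITM1 in the 6 treatments was lost without any 1 control or EA20TMZ580 (0.0548 to 0.127), IFITM2 per EA dose without any 1 control (0.0569 to 0.0613) and CEND1 per EA dose without control 1 (0.0509) or EA45 (0.115).

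**Figure D4:**
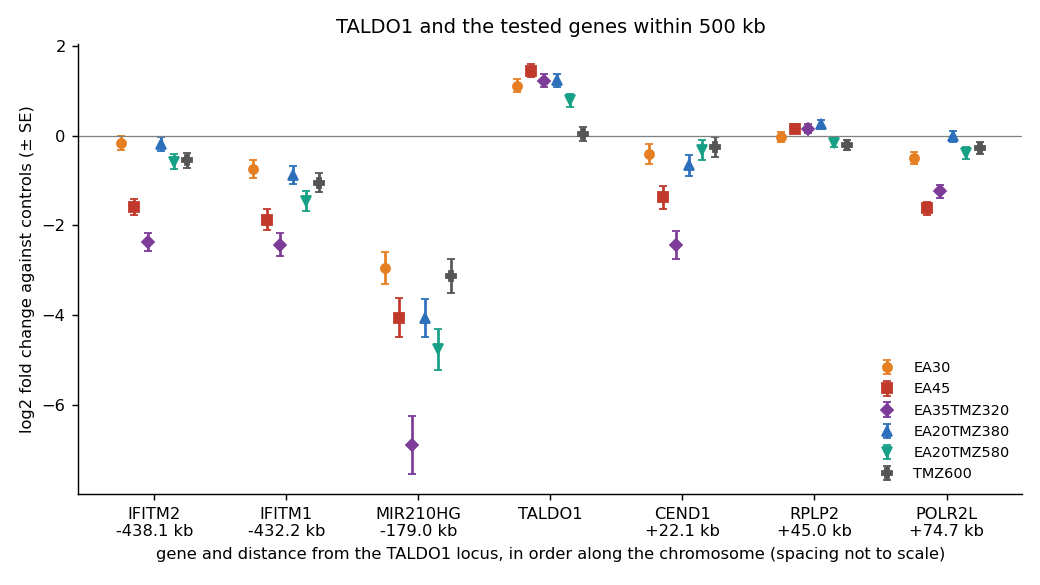
Log2 fold change against the controls (vertical axis, ± SE) in each treatment for TALDO1 and the 6 tested genes within 500 kb, ordered along the chromosome with the distance from TALDO1 in kb under each name. TALDO1 is above 0 in the 5 treatments with EA, RPLP2 stays between -0.20 and 0.25, and the other genes lie mostly below 0.

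Set against the counts of RPLP2, a denominator chosen after seeing the data, TALDO1 had 7.37, 6.70 and 6.11 counts per 100 counts of RPLP2 in the controls. It had 7.98 in TMZ600, 12.9 in EA20TMZ580, 13.4 in EA20TMZ380, 14.2 in EA35TMZ320, 14.9 in EA30 and 16.4 in EA45. By this ratio the 5 libraries with EA again stood above the controls, and TMZ600 stood just above the highest of them. EA35TMZ320 and EA20TMZ380 stood below EA30, the reverse of their order by share of counts. EA20TMZ380 stood only slightly above EA20TMZ580. The denominator also differed between these libraries: RPLP2 was at 36551 CPM in EA20TMZ380, 34122 in EA35TMZ320, 30051 in EA30 and 27634 in EA20TMZ580.

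The genes whose pattern was most like that of TALDO1 were ranked by Pearson's r of log2 CPM over the 9 libraries, among 311 genes with a mean of at least 50 counts. All points share the scaling of their library and the controls cluster, so r is a description. The highest were SLC35G6, a transporter family member (r = 0.98, Spearman's rho 0.97), DLGAP1-AS1, an antisense RNA (0.97, rho 0.97), and MYDGF, a secreted growth factor (0.93, rho 0.85). An RNA listed by RefSeq without a matched name (0.93, rho 0.77) and EBLN1, which derives from an ancient bornavirus (0.93, rho 0.88), came next. SLC35G6 and EBLN1 held 1263 and 446 counts on average while most ribosomal protein genes were listed at 0, so these names are in doubt, and whether their reads came from those genes was not tested. Their levels differed from those of TALDO1 in size and, for some, in order, since MYDGF and the unnamed RNA were highest in EA35TMZ320. In EA45 SLC35G6 had a log2 fold change of 0.52 and DLGAP1-AS1 of 1.27, against 1.44 for TALDO1, while EBLN1 had 2.03.

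The lowest r were those of PTGIS, the prostacyclin synthase (-0.91), COG1, part of a Golgi tethering complex (-0.91), UPF3A, a factor of nonsense-mediated decay (-0.90), ZC3H10, a zinc finger protein (-0.89), and MAP3K9, a kinase (-0.87), with rho from -0.92 to -0.77. Over all 311 genes the median r was 0.04, with quartiles of -0.56 and 0.61, so moderate values of either sign were common in these 9 libraries. An r over 0.9 was held by 9 genes, and an r under -0.9 by 2. Without the 2 libraries farthest from the median of TALDO1, controls 2 and 3, r was 0.96 for SLC35G6, 0.96 for DLGAP1-AS1, 0.87 for EBLN1, -0.87 for PTGIS and -0.81 for ZC3H10. Over the 6 treated libraries alone it was 0.95 for SLC35G6 and -0.72 for ZC3H10.

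**Figure D5:**
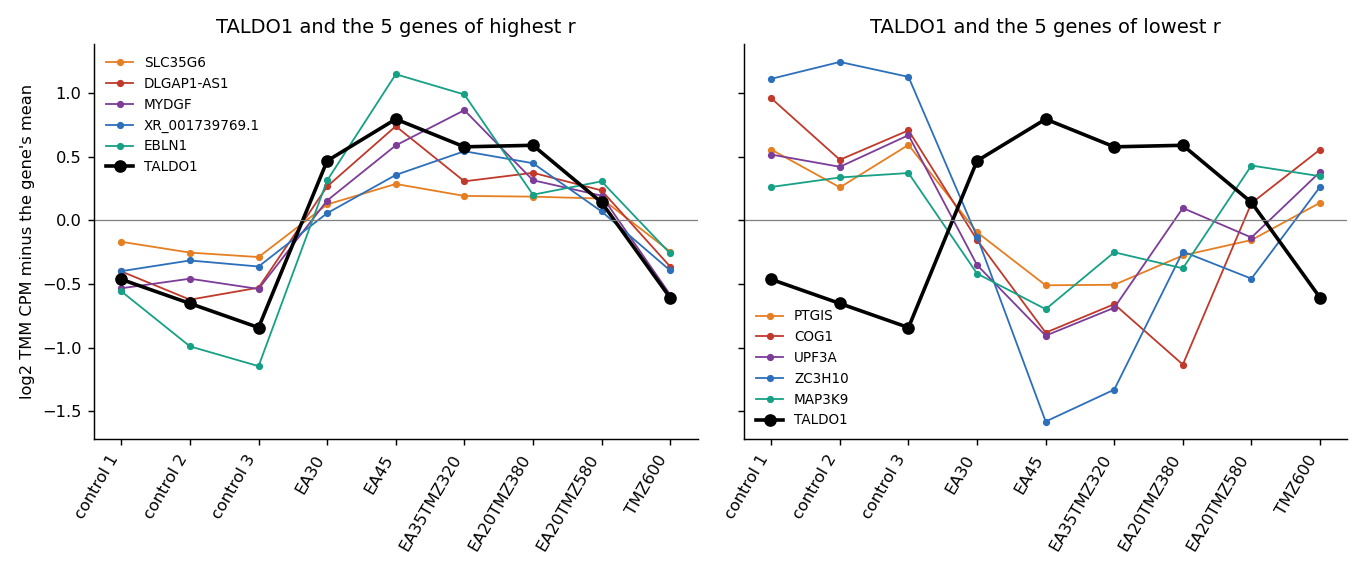
Log2 TMM CPM minus each gene's mean over the 9 libraries (vertical axis), by library, for TALDO1 (black) with the 5 genes of highest r (left) and of lowest r (right); lines only join the points of a gene. TALDO1 and the genes on the left are low in the controls and TMZ600 and higher in the libraries with EA, with r from 0.93 to 0.98.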

How the data were processed

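The authors prepared 3′ end libraries of total RNA from 9 U-87 samples and deposited 1 table of raw counts per RefSeq transcript. The submitters' processing notes name HISAT2, HTSeq and hg38, without versions or counting settings. Libraries were assigned to treatments by the sample labels.

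Gene names came from RefSeq (GRCh38.p14), matched on the versioned accession for 57755 transcripts and on the bare accession for 56301. The 45011 without a match held 4.63% of counts and kept their identifiers. Counts were summed per gene, giving 80013 genes or unnamed transcripts, of which the 609 with 10 or more counts on average were tested. The fits used edgeR 4.0.16 in R 4.3.3, with TMM scaling, 1 coefficient per condition, the 6 treatments as 1 group, or 1 term per 10 µM EA and 1 per 100 µM TMZ. Calls had a Benjamini-Hochberg adjusted p under 0.05. No p is given for TALDO1, which was kept among the 609 genes in the adjustment and in the counts and shares of all genes called. The fits were tested on simulated data. Intervals of shares are Wilson intervals, and those of ratios between 2 libraries are exact Clopper-Pearson intervals conditional on the summed counts, both at 95%.

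Named genes were TALDO1, list genes with a mean of at least 10 counts, pentose phosphate genes, tested genes within 500 kb, and the 5 genes of highest and 5 of lowest r with TALDO1 (prior count 2, mean of at least 50 counts). The members and lists were chosen with earlier results of these data known. Alternatives were DESeq2 size factors, DESeq2 1.42.0's Wald test, no filter, a mean of at least 50 counts, mitochondrial genes left out, single transcripts, each treated library with the controls alone, and each library left out in turn. Python 3.11.15, pandas 2.3.3, numpy 2.4.6, scipy 1.17.1 and matplotlib 3.10.9 were also used.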

Additional observations from a re-analysis of the deposited data

How the results depend on the processing

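The fold changes of TALDO1 moved by less than 1 SD of the controls under each alternative fit. They ranged from -0.06 to 0.13 in TMZ600, 0.69 to 0.88 in EA20TMZ580, 1.14 to 1.35 in EA20TMZ380, 1.12 to 1.33 in EA35TMZ320, 1.02 to 1.21 in EA30 and 1.34 to 1.54 in EA45, and from 0.94 to 1.17 with the 6 treatments as 1 group. Its share of counts over the control mean was higher with nuclear counts as the denominator, at 1.87 in EA20TMZ580, 2.32 in EA20TMZ380, 2.38 in EA35TMZ320, 2.19 in EA30 and 2.61 in EA45. With RPLP2 as the denominator, an alternative added after seeing the data, it was 1.19 in TMZ600, 1.92 in EA20TMZ580, 1.98 in EA20TMZ380, 2.11 in EA35TMZ320, 2.22 in EA30 and 2.44 in EA45, of which those in EA20TMZ380 and EA35TMZ320 were close to the ratios of all counts, 1.93 and 2.10.

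Of the list genes, 1 instead of 2 was called in EA45 and in EA20TMZ580 with DESeq2, with no filter and with a minimum mean of 50 counts, which removes PRDX2. In EA20TMZ580, DESeq2 gave PRDX2 no adjusted p, so this is not a lost call. Leaving out 1 library moved the count between 1 and 2 in EA45 (1 without control 1) and for the EA term (2 without EA30). It moved the count for the TMZ term between 0 and 1, with 0 without control 2, control 3, EA20TMZ580 or TMZ600. The cause was not tested. Of 31 calls of neighbouring genes over all comparisons, 20 held in every alternative. No paired analysis was possible because each treatment has 1 library. Most genes of the pathway lists were listed at 0 or held too few counts to test, for reasons that were not tested. The data used here hold 1 library per treatment, so how far a second library of any dose would differ is not known.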
